A study of Mus musculus with 16 samples.

Results

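The classical glucocorticoid-induced genes are a set of 32 genes known to be switched on through GR, the glucocorticoid receptor, which is a nuclear receptor made from the gene Nr3c1 and binds cortisol or corticosterone. They were chosen by name as known targets, and their probes were found by matching the transcript accession of each array probe to the gene. Of the 32 genes, 31 had a matching probe (46 probes, 45 of them kept) and all 31 passed the filter on dim signals. No probe matched Zbtb16, which is not analysed here. The 31 genes stand among 25107 features tested, made up of 16677 named genes and 8430 probes without a name.

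On binding hormone, GR leaves a complex of chaperones in the cytoplasm, enters the nucleus and binds DNA elements near its target genes as a dimer. Several targets feed back on the signal: the FKBP51 protein made from Fkbp5 lowers the receptor's affinity for hormone, and GILZ, made from Tsc22d3, dampens inflammatory transcription. In fat, glucocorticoids promote the maturation of preadipocytes through C/EBP factors and change the handling of fuel.

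RNA came from 4 groups of female mice: brown adipose tissue (BAT) of mice with an adipose-tissue specific GR knockout (AdipoKO), BAT of control mice (CTL), white adipose tissue (WAT) of AdipoKO mice and WAT of CTL mice. Each group had 4 one-colour arrays of total RNA. The labels give no age, strain, hormone treatment, Cre driver or deleted exons, and for WAT no depot, so the cells in which the receptor was removed are known only as adipose tissue. A level below is log2 of a probe's processed signal relative to the 75th percentile of its own array, so that 1 unit is a doubling and a negative level lies under that percentile. A difference is the first group minus the second on this log2 scale, given with its standard error (SE). The SE and limma p rest on a spread estimated per feature over all 4 groups. For BAT they therefore also carry the spread among WAT samples.

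The arrays of AdipoKO_WAT 1 and 2 stood apart from all others by their likeness. The SD of their log2 difference over 10052 bright probes was 0.0903, against at least 0.22 in the other 119 pairs of arrays, and 1 probe differed over 2-fold. They were averaged as 1 sample, AdipoKO_WAT 1-2, which left 15 samples, with 3 knockouts in WAT. Before scaling, the 75th percentile ranged from 299 to 497 in AdipoKO_BAT, 502 to 562 in CTL_BAT, 486 to 735 in AdipoKO_WAT and 725 to 1035 in CTL_WAT arrays. Between 66.7% and 83.6% of probes per array had a signal well above background. Precision is set by the number of separate samples and the spread between them, not by the number of arrays. Adipocyte markers such as Adipoq were well above background on every array, and the brown fat marker Ucp1 averaged 8.56 in AdipoKO_BAT and 8.38 in CTL_BAT samples, against -3.02 in AdipoKO_WAT and -4.39 in CTL_WAT samples.

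The DNA element that GR binds as a dimer is an inverted repeat: AGAACA, then any 3 bases, then TGTTCT. This full element, its core ACANNNTGT and the single site TGTTCT were searched on both strands in the 250 bases before the transcription start in RefSeq promoters (GRCm38.p6). Of the 32 genes, 29 had a promoter in the table, with 44 promoters in all; Cebpd, Tgm2 and Zbtb16 had none. The full element was found in 3 of 32841 promoters (0.00913%), and 1 of these 3 belonged to Sgk1. The core, which the full element contains, was found for 5 of the 29 genes (17.2%), against 6.77% of the 27018 genes in the table. The single site, which overlaps the full element too, was found for 6 of the 29 (20.7%), against 18.2% of all genes. The 29 genes had 44 promoters, against 32841 for the 27018 genes, and a gene with more promoters has more places for a match. The shares per gene are therefore not on equal terms. The 5 genes with a core are shown because they are the members with the closest match to the dimer element in this window; capitals mark every match to any of the 3 motifs.
Sgk1, chr10:21993640-21993889, + strand: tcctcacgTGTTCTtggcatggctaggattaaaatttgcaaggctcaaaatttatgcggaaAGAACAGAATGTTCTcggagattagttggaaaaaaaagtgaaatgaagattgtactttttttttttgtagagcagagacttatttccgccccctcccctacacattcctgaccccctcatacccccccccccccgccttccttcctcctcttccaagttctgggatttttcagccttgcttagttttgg
Glul, chr1:153899679-153899928, + strand: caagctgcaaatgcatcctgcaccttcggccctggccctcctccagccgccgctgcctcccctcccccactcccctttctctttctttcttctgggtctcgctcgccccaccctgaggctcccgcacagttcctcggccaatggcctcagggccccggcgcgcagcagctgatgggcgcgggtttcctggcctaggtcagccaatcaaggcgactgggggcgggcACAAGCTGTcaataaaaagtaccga
Map3k6, chr4:133240568-133240817, + strand: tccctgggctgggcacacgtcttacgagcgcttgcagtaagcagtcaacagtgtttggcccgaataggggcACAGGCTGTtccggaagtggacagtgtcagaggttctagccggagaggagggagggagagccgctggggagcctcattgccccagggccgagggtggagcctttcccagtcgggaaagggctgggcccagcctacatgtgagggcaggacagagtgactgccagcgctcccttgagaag
Fam107a, chr14:8309778-8310027, - strand: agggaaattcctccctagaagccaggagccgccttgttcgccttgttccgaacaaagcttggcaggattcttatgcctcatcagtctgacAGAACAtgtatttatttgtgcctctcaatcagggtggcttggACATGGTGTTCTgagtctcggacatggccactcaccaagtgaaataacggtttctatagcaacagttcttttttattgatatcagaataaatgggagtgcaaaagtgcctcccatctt
Lcn2, chr2:32387740-32387989, - strand: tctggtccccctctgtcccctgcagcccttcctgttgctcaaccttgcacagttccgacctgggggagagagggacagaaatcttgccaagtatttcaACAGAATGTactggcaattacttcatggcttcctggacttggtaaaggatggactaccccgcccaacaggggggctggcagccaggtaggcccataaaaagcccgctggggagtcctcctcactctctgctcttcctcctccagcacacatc
In the Sgk1 sequence the full element begins 189 bases before the start site. The core lies 25 bases before the start in Glul, 179 in Map3k6, 118 in Fam107a and 152 in Lcn2. These matches are letters in a window and were not tested for binding.

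The transcript of the targeted receptor was examined first. Nr3c1 had levels of 1.29, 1.30, 1.45 and 1.76 in AdipoKO_BAT samples 1 to 4, against 2.33, 2.40, 2.53 and 2.70 in CTL_BAT samples 1 to 4. In white fat it had 1.64, 1.36 and 1.58 in AdipoKO_WAT samples 1-2, 3 and 4, against 1.93, 2.56, 2.0 and 2.25 in CTL_WAT samples 1 to 4. In both depots all knockouts were below all controls. The difference was -1.03 ± 0.18 in BAT, so knockouts held 48.8% of the control level (n = 4 each, limma adjusted p = 0.0815, exact permutation p = 0.0286). It was -0.66 ± 0.19 in WAT, or 63.4% of the control level (n = 3 and 4, limma adjusted p = 0.210, exact permutation p = 0.0286). The exact two-sided p is the smallest these group sizes allow. In tissue RNA, fewer cells of a type and less RNA per cell cannot be told apart, and the tissue also holds cells other than adipocytes.

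None of the glucocorticoid-induced genes had a limma adjusted p under 0.05 in either knockout comparison. In BAT 0 of 31 were called, where 0.0159% of all features were called, and at an unadjusted p under 0.05 by limma 6 were higher and 2 lower, where 7.63% of all features were higher and 5.5% lower. In WAT 0 of 31 were called, where 0.0597% of all features were called, and at an unadjusted p under 0.05 by limma 2 were higher and 8 lower, where 11.9% were higher and 6.08% lower. The median difference of the 31 genes was 0.17 in BAT, against 0.10 for all features. In WAT it was -0.47, against 0.25 for all features. Of the 31 genes 20 were above 0 in BAT, where 60.1% of all features were, and 10 were above 0 in WAT, where 66.5% were. Scaling arrays by the median in place of the 75th percentile put the median of all features at -0.04 in BAT and 0.11 in WAT, and that of the 31 genes at 0.03 and -0.61, so single differences near 0 have no settled direction.

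The WAT count rested on 1 sample. Without AdipoKO_WAT 4, which leaves 2 knockout samples, 17 of the 31 genes were called (4 higher and 13 lower, or 54.8%), where 36.9% of all features were called (20.9% higher and 15.9% lower). The 4 called higher were Ddit4, Arrdc2, Nfkbia and Sesn1. The 13 called lower were Sult1a1, Glul, Pdk4, Klf9, Map3k6, Anxa1, Gpx3, Cebpb, Klf15, Fam107a, Errfi1, Cebpd and Tgm2. In BAT the count was 0 whichever sample was left out.

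**Figure D1:**
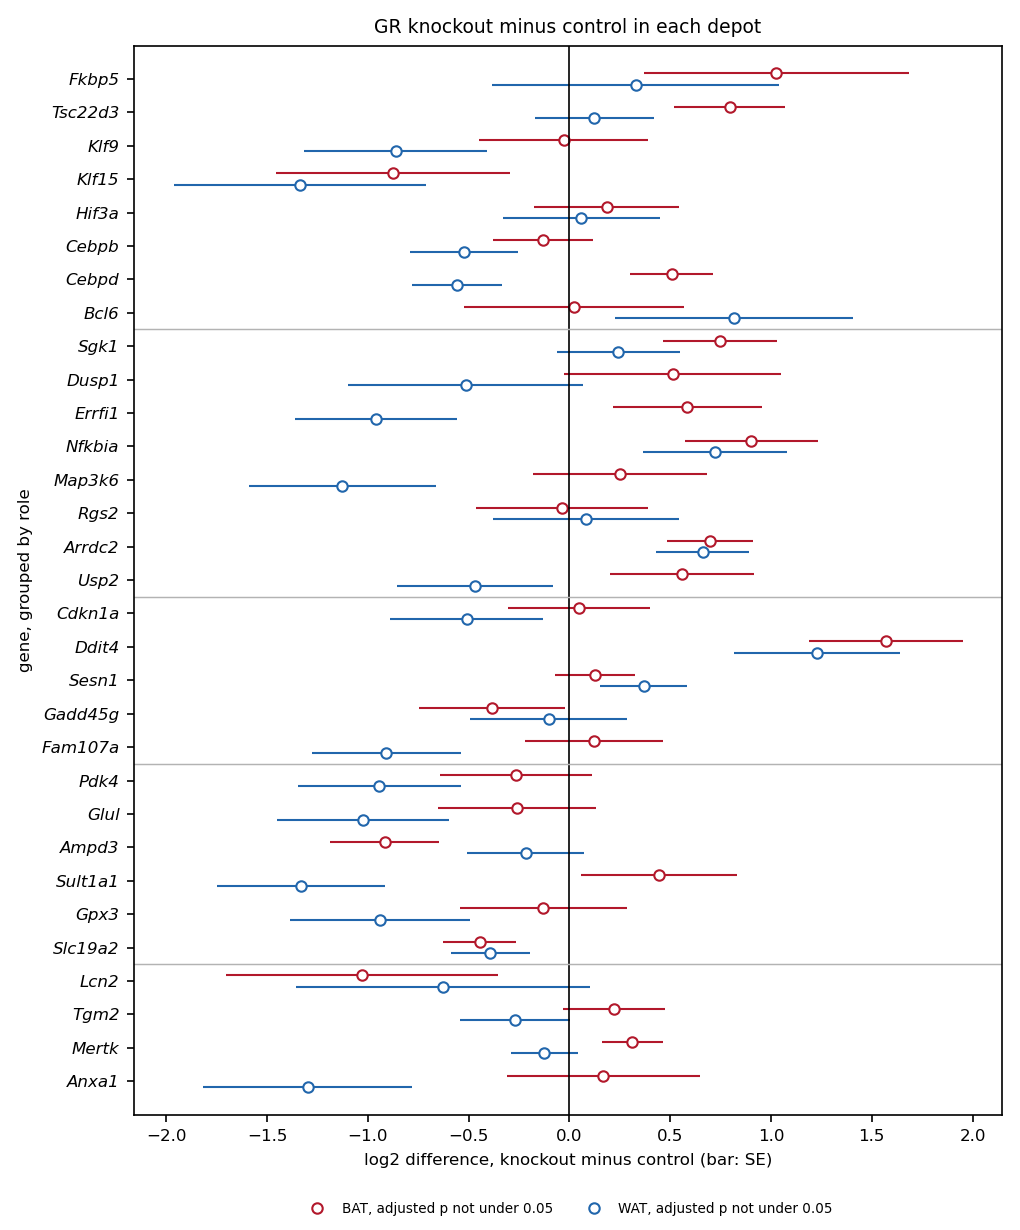
Difference between GR knockout and control (log2, x axis) for each of the 31 measured genes, in BAT (red) and WAT (blue), with the SE as a bar and lines between the role groups. All symbols are open because no gene had an adjusted p under 0.05, and most blue symbols lie left of 0.

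Among the genes for chaperones and transcription factors, Fkbp5 and Tsc22d3, widely used readouts of receptor activity, had positive differences in both depots by their brightest probes without passing the test. Fkbp5 encodes FKBP51, the co-chaperone that restrains the receptor. It had -1.93, 0.95, -0.86 and -2.34 in AdipoKO_BAT, against -2.58, -2.60, -1.34 and -1.77 in CTL_BAT samples, and 0.61, 0.50 and -1.15 in AdipoKO_WAT, against -0.65, -1.25, 0.55 and -0.02 in CTL_WAT samples. The groups overlapped in both depots, and the knockout samples of each depot lay far apart from each other. The difference was 1.03 ± 0.66 in BAT (adjusted p = 0.546), and 0.33 ± 0.71 for WAT (adjusted p = 0.773). The other probes of Fkbp5 gave -0.43 and 0.26 in BAT, so its probes disagreed.

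Tsc22d3, which encodes the anti-inflammatory protein GILZ, had 1.65, 2.44, 1.98 and 1.5 in AdipoKO_BAT, against 0.72, 0.76, 1.62 and 1.29 in CTL_BAT samples. In white fat it had 2.26, 2.21 and 2.11 in AdipoKO_WAT, against 1.66, 1.83, 2.65 and 2.13 in CTL_WAT samples. In BAT 3 of the 4 knockouts lay above all controls, and in WAT the knockouts lay within the range of the controls. The difference was 0.80 ± 0.27 in BAT (adjusted p = 0.252), and 0.12 ± 0.30 for WAT (adjusted p = 0.794), where its sign turned with median scaling. The second probe gave 0.24 in BAT.

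Klf9 encodes a Krüppel-like factor that mediates feedback on hormone-driven transcription. Its levels were 1.91, 2.25, 2.13 and 2.10 in AdipoKO_BAT, against 1.71, 2.12, 2.33 and 2.35 in CTL_BAT samples, and -0.92, -0.16 and 1.84 in AdipoKO_WAT, against 1.06, 1.32, 1.06 and 1.03 in CTL_WAT samples. The BAT groups covered the same range, while in WAT samples 1-2 and 3 lay below all controls and sample 4 above them. Its difference was -0.03 ± 0.42 in BAT (adjusted p = 0.991), with the sign turned under quantile normalization, and -0.86 ± 0.45 in WAT (adjusted p = 0.307). Klf15, a factor that controls amino acid and lipid metabolism, differed by -0.88 ± 0.58 in BAT (adjusted p = 0.566), and -1.34 ± 0.63 for WAT (adjusted p = 0.279).

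Cebpd, an early C/EBP factor of adipocyte maturation, lay on opposite sides of its controls in the 2 depots. It had 2.14, 2.86, 2.26 and 2.05 in AdipoKO_BAT, against 1.88, 1.70, 1.84 and 1.85 in CTL_BAT samples, with every knockout above every control. In white fat it had 3.07, 2.95 and 3.59 in AdipoKO_WAT, against 4.07, 3.76, 3.62 and 3.6 in CTL_WAT samples, with every knockout below every control. The WAT margin was minute, with 3.5895 in AdipoKO_WAT 4 against 3.597 in CTL_WAT 4. The difference was 0.51 ± 0.21 in BAT (adjusted p = 0.325), and -0.56 ± 0.22 for WAT (adjusted p = 0.257). The genotype by depot interaction was 1.07 ± 0.30 (adjusted p = 0.371). Its partner Cebpb differed by -0.13 ± 0.25 in BAT and -0.52 ± 0.27 in WAT (adjusted p = 0.893 and 0.301). Hif3a, an inhibitory partner of hypoxia-inducible factors, and the repressor gene Bcl6 differed by 0.18 ± 0.36 and 0.02 ± 0.55 in BAT and by 0.06 ± 0.39 and 0.82 ± 0.59 in WAT, in that order (adjusted p = 0.414 for Bcl6 in WAT and higher for the others). A dimmer probe of Hif3a gave -0.63 in BAT and -0.01 in WAT.

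**Figure D2:**
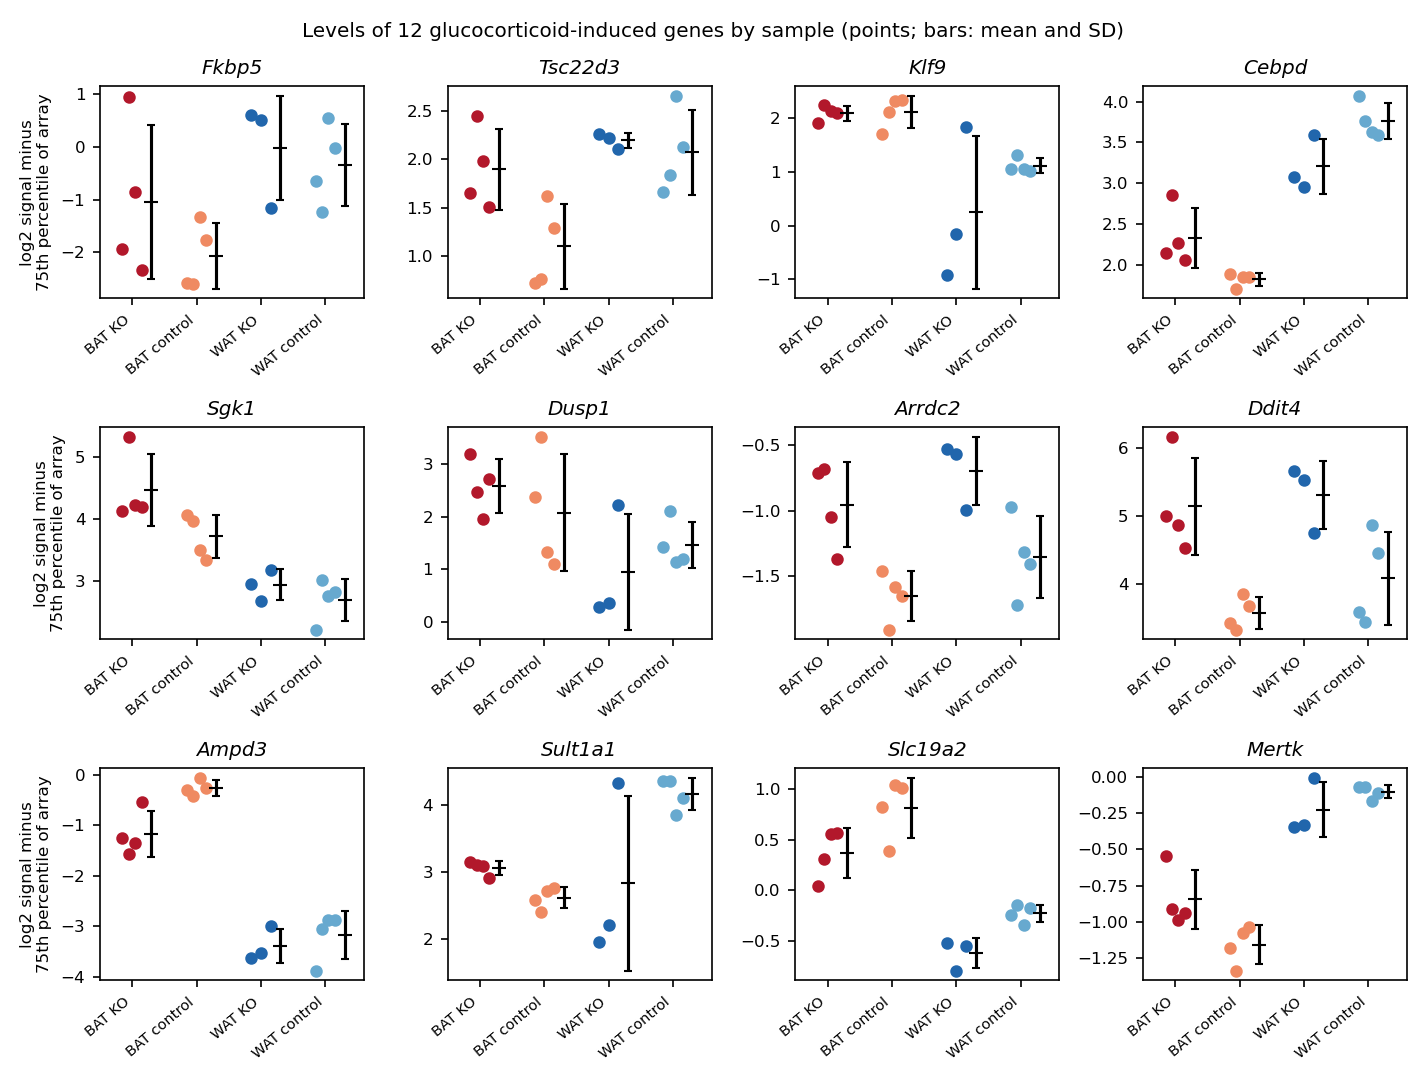
Level (log2, relative to the 75th percentile of each array, y axis) of 12 genes in each sample (points) of AdipoKO_BAT, CTL_BAT, AdipoKO_WAT and CTL_WAT, with the mean and SD of each group beside the points. Ddit4, Arrdc2, Sgk1, Cebpd, Mertk and Sult1a1 lay higher in every BAT knockout than in every BAT control, and Ampd3 lay lower.

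Of the 8 signalling genes, 7 had a positive difference in BAT (median 0.57; quantile normalization put Rgs2 above 0 as well) and 4 in WAT (median -0.19), and none was called. Sgk1 encodes a kinase that regulates ion transport and insulin-linked signalling. It had 4.13, 5.33, 4.22 and 4.20 in AdipoKO_BAT, against 4.06, 3.97, 3.51 and 3.34 in CTL_BAT samples, and 2.96, 2.69 and 3.19 in AdipoKO_WAT, against 2.22, 3.01, 2.76 and 2.82 in CTL_WAT samples. The BAT groups did not overlap, though sample 2 stood well above the other 3 knockouts, and the WAT groups overlapped. The difference was 0.75 ± 0.28 in BAT (adjusted p = 0.291), and 0.24 ± 0.31 for WAT (adjusted p = 0.618). Of its 6 promoters in the table, 1, printed above, holds the full element.

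Arrdc2, which encodes an arrestin-domain protein, had -0.71, -0.69, -1.05 and -1.37 in AdipoKO_BAT, against -1.46, -1.91, -1.58 and -1.65 in CTL_BAT samples. Its levels in white fat were -0.53, -0.56 and -0.99 in AdipoKO_WAT, against -0.97, -1.73, -1.32 and -1.41 in CTL_WAT samples. In BAT the groups did not overlap, and in WAT a single control lay within the knockout range. The differences were alike in size, 0.70 ± 0.21 in BAT (adjusted p = 0.213), and 0.66 ± 0.23 for WAT (adjusted p = 0.235), with an interaction of 0.04 ± 0.31.

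Dusp1 encodes a phosphatase that switches off MAP kinases. It had 3.21, 2.48, 1.96 and 2.72 in AdipoKO_BAT, against 2.38, 3.53, 1.32 and 1.09 in CTL_BAT samples, and 0.28, 0.36 and 2.23 in AdipoKO_WAT, against 1.43, 2.10, 1.15 and 1.20 in CTL_WAT samples. The BAT controls alone spanned more than the knockouts did. The difference was 0.51 ± 0.54 in BAT (adjusted p = 0.765), and -0.51 ± 0.58 for WAT (adjusted p = 0.583).

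The other 5 signalling genes had no called difference or interaction. Nfkbia, the inhibitor of NF-kappaB, differed by 0.90 ± 0.33 in BAT (adjusted p = 0.272), and 0.72 ± 0.36 for WAT (adjusted p = 0.289). Errfi1, an inhibitor of the EGF receptor, differed by 0.59 ± 0.37 in BAT and -0.96 ± 0.40 in WAT (interaction 1.54, adjusted p = 0.397). The kinase gene Map3k6 differed by 0.25 ± 0.43 in BAT and -1.13 ± 0.46 in WAT (interaction 1.38, adjusted p = 0.474). Usp2, a deubiquitinase gene, differed by 0.56 ± 0.36 in BAT and -0.47 ± 0.39 in WAT, and its dimmer probe gave 0.40 and 0.24. Rgs2, a brake on G protein signalling, differed by -0.04 ± 0.43 in BAT and 0.08 ± 0.46 in WAT. Its dimmer probe gave 0.63 in BAT and -0.47 in WAT.

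Ddit4 had the largest difference among the 31 genes in BAT. It encodes REDD1, an inhibitor of mTORC1, the kinase complex that drives growth. Its levels were 5.0, 6.17, 4.87 and 4.53 in AdipoKO_BAT, against 3.43, 3.33, 3.86 and 3.67 in CTL_BAT samples, and 5.67, 5.54 and 4.75 in AdipoKO_WAT, against 3.6, 3.44, 4.87 and 4.46 in CTL_WAT samples. Every BAT knockout lay above every BAT control, and in WAT 1 control lay within the knockout range. The difference was 1.57 ± 0.38 in BAT, or 2.97-fold (adjusted p = 0.181), and 1.23 ± 0.41 in WAT, or 2.34-fold (adjusted p = 0.232). Within the 4 slides, each of which held 1 array of each group, the BAT values were 1.66, 2.31, 1.44 and 0.86, while those of WAT were 1.94, 2.26, -0.12 and 1.19. The slide with -0.12 held AdipoKO_WAT 4, and 2 of the other WAT values, 2.26 and 1.19, come from the nearly identical arrays of AdipoKO_WAT 1 and 2.

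The other genes of growth arrest and stress differed less in BAT. Sesn1, a sestrin that restrains mTORC1, differed by 0.13 ± 0.20 in BAT and 0.37 ± 0.22 in WAT. Its dimmer probes gave -0.54 and -0.58 in BAT, so its sign there is not settled. Cdkn1a, the cell cycle inhibitor p21, differed by 0.05 ± 0.35 in BAT and -0.51 ± 0.38 in WAT. Gadd45g, a growth arrest gene, differed by -0.38 ± 0.36 in BAT and -0.10 ± 0.39 in WAT. Fam107a, a stress-induced gene, differed by 0.12 ± 0.34 in BAT and -0.91 ± 0.37 in WAT (adjusted p = 0.259).

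All 6 metabolic genes had a negative difference in WAT (median -0.94) and 5 of the 6 in BAT (median -0.26), signs that each of the 4 scalings gave, and none was called. The WAT knockouts did not share these signs. In AdipoKO_WAT 4, Pdk4, Glul and Gpx3 were 2.02, 5.81 and 3.97, above all CTL_WAT samples, while Slc19a2 lay below them. Ampd3 encodes an AMP deaminase. It had -1.25, -1.57, -1.35 and -0.53 in AdipoKO_BAT, against -0.31, -0.41, -0.05 and -0.25 in CTL_BAT samples, and -3.63, -3.52 and -3.0 in AdipoKO_WAT, against -3.88, -3.06, -2.87 and -2.87 in CTL_WAT samples. It was the 1 member of the set for which every BAT knockout lay below every BAT control. The difference was -0.92 ± 0.27 in BAT (adjusted p = 0.209), and -0.22 ± 0.29 for WAT (adjusted p = 0.640). But the second probe gave -0.09 in BAT and 0.19 in WAT.

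Sult1a1, a sulfotransferase gene, had 3.15, 3.10, 3.09 and 2.91 in AdipoKO_BAT, against 2.58, 2.41, 2.72 and 2.76 in CTL_BAT samples. Its levels in white fat were 1.96, 2.21 and 4.33 in AdipoKO_WAT, against 4.36, 4.35, 3.85 and 4.10 in CTL_WAT samples. The BAT groups did not overlap, and in WAT samples 1-2 and 3 lay far below the controls while sample 4 lay among them. The difference was 0.44 ± 0.39 in BAT (adjusted p = 0.691), and -1.33 ± 0.42 for WAT (adjusted p = 0.217), with an interaction of 1.78 ± 0.57 (adjusted p = 0.371). The SD was 0.11 in AdipoKO_BAT and 0.16 in CTL_BAT, against 1.30 in AdipoKO_WAT samples, and the shared SE carries the latter.

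Slc19a2, a thiamine transporter gene, had 0.04, 0.31, 0.55 and 0.57 in AdipoKO_BAT, against 0.82, 0.39, 1.04 and 1.01 in CTL_BAT samples, and -0.52, -0.79 and -0.55 in AdipoKO_WAT, against -0.25, -0.15, -0.34 and -0.17 in CTL_WAT samples. In WAT all 3 knockouts, sample 4 included, lay below all controls, and in BAT 1 control lay within the knockout range. The differences were alike, -0.44 ± 0.18 in BAT (adjusted p = 0.325), and -0.39 ± 0.20 for WAT (adjusted p = 0.294). Pdk4, which encodes a kinase that shuts pyruvate dehydrogenase and so spares glucose, differed by -0.26 ± 0.38 in BAT and -0.94 ± 0.41 in WAT. Glul, the glutamine synthetase gene, differed by -0.26 ± 0.39 in BAT and -1.02 ± 0.43 in WAT, and its dimmer probe gave -1.61 in BAT. Gpx3, a secreted glutathione peroxidase gene, differed by -0.13 ± 0.41 in BAT and -0.94 ± 0.45 in WAT.

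The 4 genes for secreted, matrix and clearance proteins all had a negative difference in WAT (median -0.45), though Mertk and Lcn2 were above 0 with normexp background correction, and none was called. Mertk encodes a receptor with which phagocytes clear dying cells. It had -0.54, -0.91, -0.99 and -0.94 in AdipoKO_BAT, against -1.18, -1.34, -1.08 and -1.03 in CTL_BAT samples, and -0.34, -0.33 and -0.01 in AdipoKO_WAT, against -0.07, -0.07, -0.16 and -0.11 in CTL_WAT samples. Every BAT knockout lay above every BAT control, by a small margin. The difference was 0.31 ± 0.15 in BAT (adjusted p = 0.402), and -0.12 ± 0.16 for WAT (adjusted p = 0.636).

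Anxa1, which encodes the anti-inflammatory protein annexin A1, differed by 0.17 ± 0.48 in BAT (adjusted p = 0.935), and -1.30 ± 0.52 for WAT (adjusted p = 0.256). Tgm2, a protein crosslinking enzyme gene, differed by 0.22 ± 0.25 in BAT and -0.27 ± 0.27 in WAT. Its dimmer probes gave -0.49 and -0.44 in BAT. Lcn2, the lipocalin gene, was well above background on 0 of the 4 AdipoKO_BAT, 2 of the 4 CTL_BAT, 3 of the 4 AdipoKO_WAT and 4 of the 4 CTL_WAT arrays, so its BAT levels are near background and its difference there is not read.

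Over the 31 genes, groups did not overlap for 6 genes higher (Ddit4, Arrdc2, Sgk1, Cebpd, Mertk and Sult1a1) and 1 lower (Ampd3) in BAT, where 9.36% of all features lay wholly higher and 8.62% wholly lower. In WAT 0 lay wholly higher and 2 wholly lower (Cebpd and Slc19a2), where 6.51% of all features lay wholly higher and 1.21% wholly lower. For the interaction 0 of 31 were called, where 0.00398% of all features were, and the median was 0.50, against -0.14 for all features. At an unadjusted p under 0.05 by limma 4 genes had a positive interaction (Cebpd, Errfi1, Map3k6 and Sult1a1) and 0 a negative one, where 5.07% and 5.37% of all features did. Without AdipoKO_WAT 4, 12 of the 31 were called for the interaction, all positive (38.7%), where 16.2% of all features were called. The BAT and WAT comparisons share no samples, but the interaction uses both.

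The knockout samples were not alike. The median of the 31 genes, as the difference from the mean of the controls, was 0.23, 0.33, 0.08 and 0.06 in AdipoKO_BAT samples 1 to 4, where the median of all features was 0.41, 0.19, -0.03 and -0.06. In AdipoKO_WAT samples 1-2, 3 and 4 it was -0.79, -0.57 and 0.34, where the median of all features was -0.04, 0.47 and 0.23. Thus WAT samples 1-2 and 3 were low for the set, and sample 4 was near the level of all features. In sample 1-2, 19 of the 31 genes (61.3%) lay below all controls, where 32.3% of all features did, and 6 (19.4%) above them, where 33.6% did. In sample 3, 18 (58.1%) lay below all controls, where 23.8% of all features did, and 5 (16.1%) above them, where 49.6% did. In sample 4, 4 (12.9%) lay below all controls and 12 (38.7%) above them, near the 12.6% and 32.8% of all features. AdipoKO_BAT 2 was the highest BAT knockout for 13 of the 31 genes (41.9%), against 18.9% of all features.

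**Figure D3:**
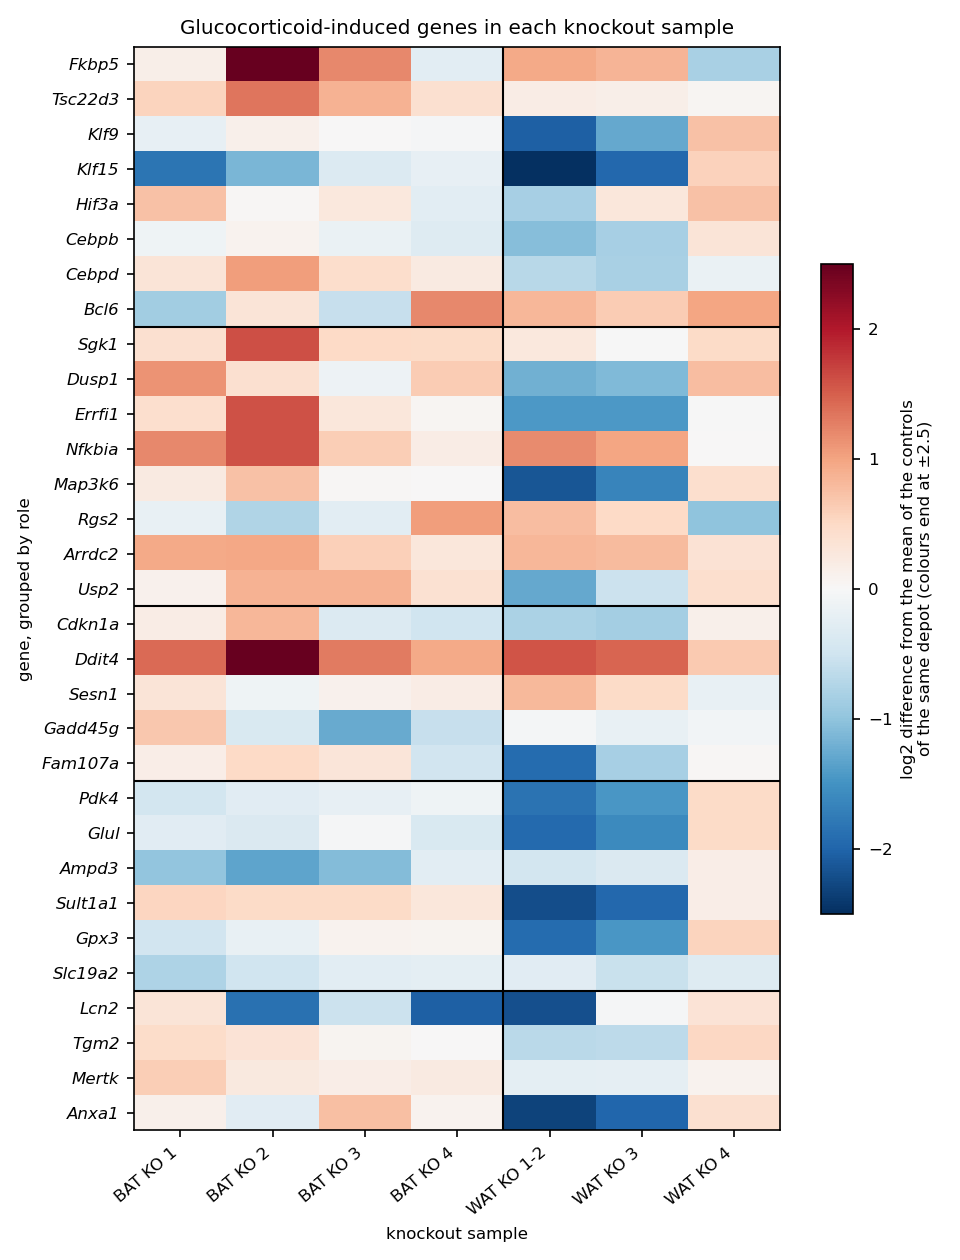
Difference of each knockout sample from the mean of the controls of its depot (log2, colour, ending at ±2.5) for the 31 genes (rows, grouped by role) in 4 AdipoKO_BAT and 3 AdipoKO_WAT samples (columns). Ddit4 is above 0 in all 7 columns, and WAT columns 1-2 and 3 are blue where column 4 is mostly red.

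Among the 3 WAT knockouts, cell markers moved with these sample differences. To summarise a list, each gene was set against its own mean across the 15 samples, and the median of these deviations was taken per sample. The adipocyte list (10 of 10 markers measured) had -1.96, -1.04 and 0.78 in AdipoKO_WAT samples 1-2, 3 and 4, against -0.50 to 0.21 in CTL_WAT samples. The B cell list (8 of 8) had 5.09, 4.81 and -1.22 in the same knockouts, against -0.47 to 3.71 in CTL_WAT samples. The T and NK cell list (9 of 9) had 4.27, 3.98 and -1.09, against -0.64 to 3.17 in CTL_WAT samples. WAT knockouts 1-2 and 3 thus had low adipocyte and high lymphocyte levels, and sample 4 the reverse. Of the WAT controls, CTL_WAT 1 and 2 had adipocyte levels of 0.21 and 0.12, with B cell levels of 0.17 and -0.47. CTL_WAT 3 and 4 had lower adipocyte levels, -0.28 and -0.50, and higher B cell levels, 3.71 and 3.04. Their T and NK cell levels were 3.17 and 2.42, against -0.12 and -0.64 in CTL_WAT 1 and 2. The level of the glucocorticoid-induced set was -0.38, -0.15, -0.13 and -0.21 in CTL_WAT samples 1 to 4. It was -0.99, -0.88 and 0.16 in AdipoKO_WAT samples 1-2, 3 and 4. A pair of other lists separated all 3 WAT knockouts, sample 4 included, from all WAT controls. The mesothelial list (5 of 5) had -1.16, 0.97 and 2.95 in AdipoKO_WAT samples 1-2, 3 and 4, against 3.75 to 5.04 in CTL_WAT samples. The neutrophil and mast cell list (6 of 7) had -1.62, -0.51 and -0.16, against 0.38 to 1.40 in CTL_WAT samples. Within it the mast cell genes Cpa3, Cma1, Mcpt4 and Tpsb2 had lower means in AdipoKO_WAT than in CTL_WAT samples. The neutrophil genes went the other way: S100a8 averaged -2.22 against -2.76 and S100a9 0.12 against -0.62. The part of these levels in the member values was not tested. In a fit of WAT samples with the adipocyte level as a covariate, 0 of the 31 genes were called and their median was -0.15. The main fit also called 0 in WAT, so this count cannot show such a part.

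The controls and brown fat samples also varied. The intestinal epithelium list (8 of 8) had -1.30, 0.31 and -0.80 in AdipoKO_WAT, against 6.44, -1.58, 0.60 and 5.11 in CTL_WAT samples, and 0 genes were called in WAT without CTL_WAT 1 and 4. In BAT the skeletal muscle list (13 of 13) had 2.47, 5.15, 4.99 and 2.48 in AdipoKO_BAT, against 2.42, 3.01, 2.29 and -1.08 in CTL_BAT samples. The endothelial list (8 of 8) had 1.33, 1.0, 0.36 and 0.51 in AdipoKO_BAT, against 0.14, 0.36, 0.20 and 0.10 in CTL_BAT samples. With the muscle level as a covariate in BAT samples 0 of the 31 genes were called and their median was 0.20. The main fit also called 0 in BAT, so the part of the muscle level was not tested by this count.

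**Figure D4:**
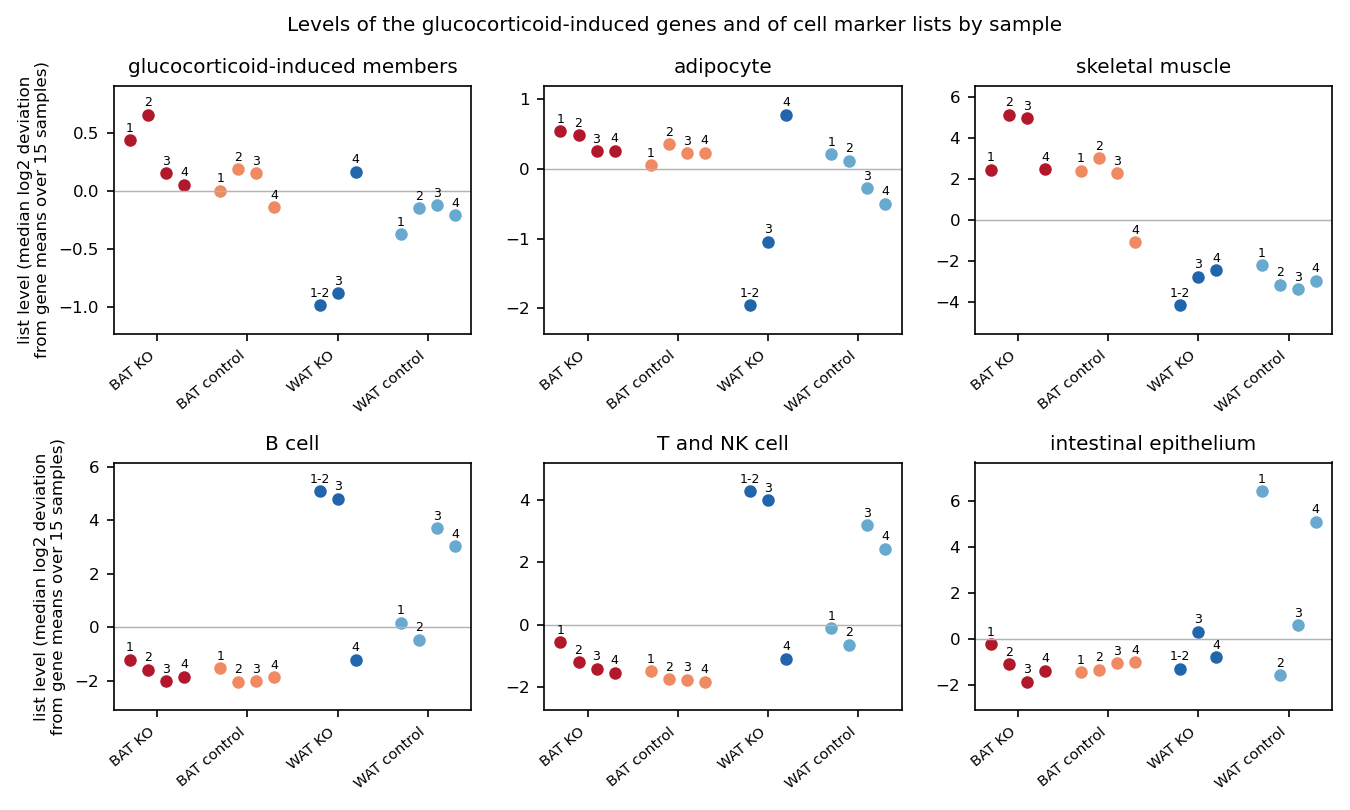
Level of the glucocorticoid-induced genes and of 5 cell marker lists (median log2 deviation from the gene means over 15 samples, y axis) in each sample, with its number above the point, by group. The set and the adipocyte list are lowest in WAT knockouts 1-2 and 3, where both lymphocyte lists are highest.

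Between depots many of the 31 genes differed, in AdipoKO as in CTL mice. In controls 10 of the 31 were higher and 7 lower in BAT than in WAT, where 19.1% of all features were higher and 14.3% lower. In knockouts 14 were higher and 4 lower in BAT, where 16.6% of all features were higher and 14% lower. With only the 2 knockout groups in the fit, 9 of these 18 were called, all higher in BAT. With median scaling the split was 15 higher and 2 lower in knockouts and 11 higher and 5 lower in controls. The share of all features under these other settings is not given here, so these counts are not read as particular to the set. The 2 depot comparisons share no samples.

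Pdk4 had the largest depot difference of the set. Its levels were 6.51, 6.69, 6.77 and 6.86 in AdipoKO_BAT, against -0.29, 0.09 and 2.02 in AdipoKO_WAT samples, and 6.96, 7.07, 6.81 and 7.03 in CTL_BAT, against 1.77, 1.88, 1.25 and 1.30 in CTL_WAT samples. Brown fat was higher by 6.10 ± 0.41 in knockouts (adjusted p = 6.13e-07) and by 5.42 ± 0.38 in controls, or 42.8-fold (adjusted p = 4.85e-07). The samples of the 2 depots were far apart in both genotypes.

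Cebpb, the C/EBP factor, had 3.13, 3.33, 3.07 and 2.92 in AdipoKO_BAT, against -0.76, -0.53 and 0.62 in AdipoKO_WAT samples, and 3.49, 3.15, 3.22 and 3.12 in CTL_BAT, against 0.31, 0.31, 0.39 and 0.18 in CTL_WAT samples. It was higher in BAT by 3.34 ± 0.27 in knockouts (adjusted p = 2.70e-06) and by 2.94 ± 0.25 in controls (adjusted p = 1.88e-06). Cebpd ran the other way, lower in BAT by -0.88 ± 0.22 in knockouts (adjusted p = 0.00953) and by -1.94 ± 0.21 in controls (adjusted p = 1.18e-05). Both genes are described above by sample, and neither had an overlap between depots.

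Rgs2 had 5.86, 5.29, 5.77 and 7.08 in AdipoKO_BAT, against 3.17, 2.90 and 1.40 in AdipoKO_WAT samples, and 5.57, 5.70, 6.25 and 6.64 in CTL_BAT, against 2.18, 2.10, 2.77 and 2.59 in CTL_WAT samples. It was higher in BAT by 3.51 ± 0.46 in knockouts and by 3.63 ± 0.43 in controls (adjusted p = 0.000111 and 2.84e-05). Gpx3 had 5.53, 5.84, 6.10 and 6.09 in AdipoKO_BAT, against 1.5, 1.96 and 3.97 in AdipoKO_WAT samples, and 5.66, 5.62, 6.33 and 6.48 in CTL_BAT, against 3.38, 3.49, 3.38 and 3.40 in CTL_WAT samples. It was higher in BAT by 3.42 ± 0.45 in knockouts and by 2.61 ± 0.41 in controls (adjusted p = 0.000104 and 0.000289). In both genes every BAT sample lay above every WAT sample of its genotype.

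In controls Anxa1 had the largest difference in the opposite direction. It had 1.80, 1.40, 2.42 and 1.75 in AdipoKO_BAT, against 2.47, 2.80 and 5.18 in AdipoKO_WAT samples, and 1.85, 1.60, 1.35 and 1.90 in CTL_BAT, against 4.65, 5.52, 4.32 and 4.64 in CTL_WAT samples. It was lower in BAT by -3.11 ± 0.48 in controls (adjusted p = 0.000237) and by -1.64 ± 0.52 in knockouts (adjusted p = 0.0276). The knockout call was lost without AdipoKO_WAT 4 (-0.79, adjusted p = 0.0681), AdipoKO_BAT 2 or AdipoKO_BAT 4, and with median scaling (adjusted p = 0.0548). The depots did not overlap in either genotype, and AdipoKO_WAT samples 1-2 and 3 lay close above the highest BAT sample.

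The other called genes of the controls were Ampd3 (2.91 ± 0.27), Usp2 (1.65), Glul (1.60), Gadd45g (1.54), Slc19a2 (1.04) and Sgk1 (1.02), all higher in BAT, and Sult1a1 (-1.54), Fam107a (-1.13), Mertk (-1.06), Tsc22d3 (-0.97) and Sesn1 (-0.76), all lower in BAT. Of the 17 calls in controls, 11 passed under all 28 alternatives, and those of Tsc22d3, Fam107a, Sgk1, Sesn1, Glul and Sult1a1 did not. The call of Tsc22d3 was lost without CTL_WAT 3, with normexp (adjusted p = 0.0536), with median scaling (0.0626) and with the mean of probes (0.0818). That of Fam107a was lost without CTL_WAT 3, CTL_WAT 4 or CTL_BAT 1 (adjusted p up to 0.0673), with quantile normalization (0.0503) and with normexp (0.236). Sgk1 was lost with quantile normalization (0.0695), and Sesn1 with median scaling (0.0762) and the mean of probes (0.176). Without CTL_WAT 1 and 4, the controls with intestinal transcripts, Glul (0.0587), Sult1a1 (0.0583), Sgk1 (0.113), Sesn1 (0.0697) and Fam107a (0.102) were not called. The second probe of Ampd3 gave 0.52 in controls. In knockouts Klf9, Dusp1, Errfi1 and Cdkn1a were called higher in BAT as well (1.84, 1.64, 1.44 and 1.35), while Sult1a1, Fam107a and Tsc22d3 were not called (0.23, -0.10 and -0.30). Of the 18 calls in knockouts, 9 passed under all 28 alternatives (Pdk4, Cebpb, Ampd3, Rgs2, Gpx3, Usp2, Glul, Sgk1 and Slc19a2). Leaving out 1 sample ended those of Dusp1 (adjusted p up to 0.189), Errfi1 (up to 0.0855), Cdkn1a (up to 0.0794) and Gadd45g (up to 0.0837), as well as Anxa1. Klf9 (0.078), Cebpd (0.0983), Mertk (0.141) and Sesn1 (0.0696) were lost with only the knockout groups in the fit, Cebpd (0.0758) and Mertk (0.106) also with normexp, and Mertk (0.133) with median scaling. Fkbp5 was lower in BAT controls by -1.73 ± 0.66 with no overlap, and its adjusted p of 0.0576 missed the threshold.

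**Figure D5:**
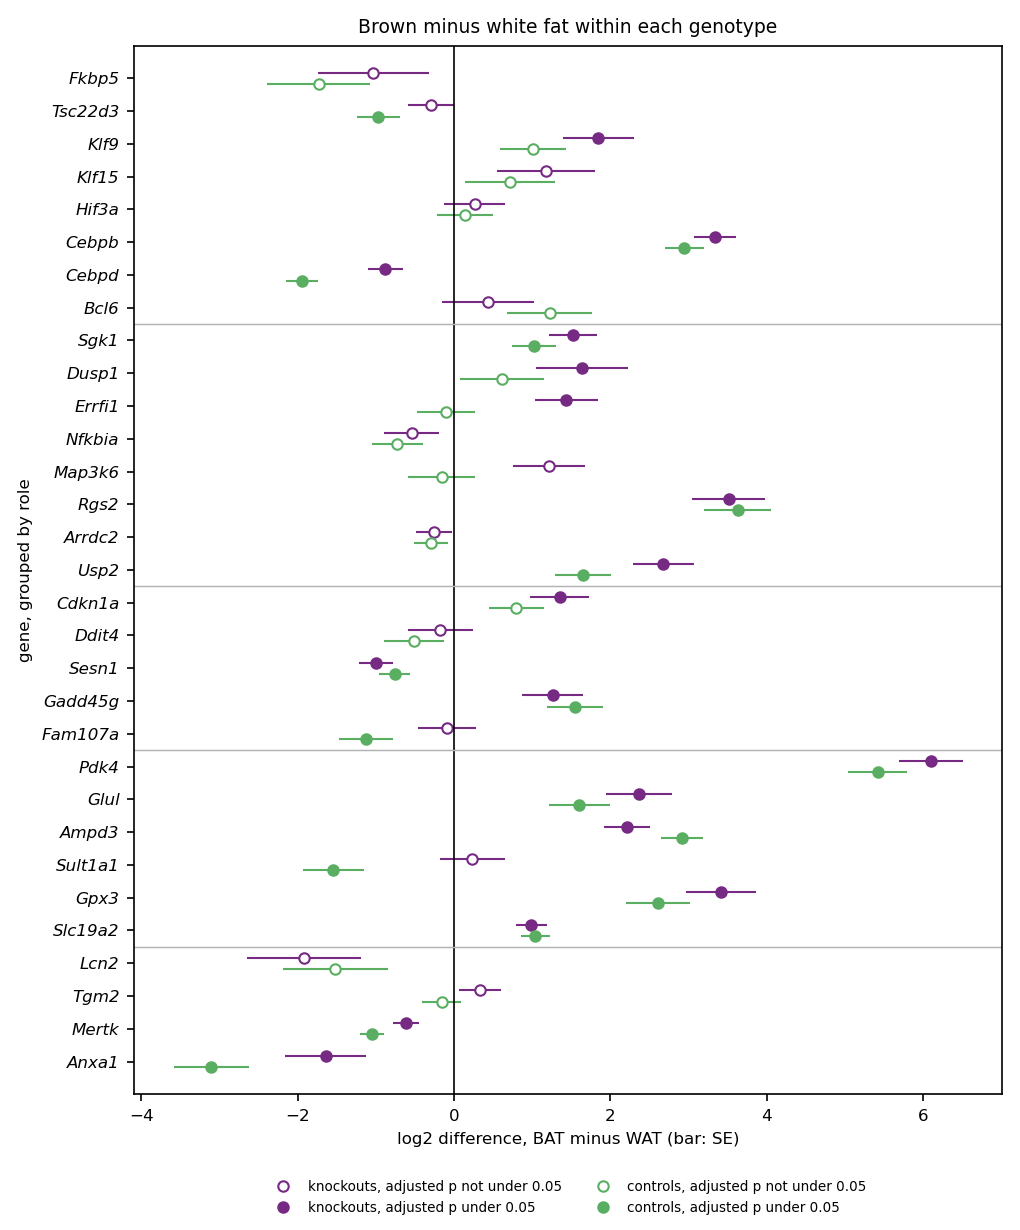
Difference between BAT and WAT (log2, x axis) for the 31 genes in knockouts (purple) and in controls (green), with the SE as a bar, filled where the adjusted p was under 0.05. Pdk4 lies farthest to the right in both genotypes and Anxa1 farthest to the left in controls.

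Other genes of the pathway were examined beside the set. Of 22 other glucocorticoid targets 19 were measured. Hsd11b1, whose enzyme regenerates active hormone inside cells, was the 1 of them called in BAT, at -2.20 ± 0.27 (adjusted p = 0.0343). Its levels were 3.02, 3.20, 3.64 and 3.35 in AdipoKO_BAT, against 5.35, 5.72, 5.30 and 5.63 in CTL_BAT samples, without overlap. In WAT it differed by -0.98 ± 0.29 (adjusted p = 0.212), and 0 of the 19 were called, with Saa3 (-2.65, adjusted p = 0.0941) and Cd163 (-2.29, adjusted p = 0.149) of smallest p. The median of the 19 was 0.13 in BAT and -0.40 in WAT. Of 12 genes that glucocorticoids repress 11 were measured and 0 were called in either depot. By smallest p these were Ccl2 (-0.48) and Ccl5 (0.95) in BAT and Icam1 (0.97) and Vcam1 (0.96) in WAT, with adjusted p of at least 0.295.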

How the data were processed

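RNA of 16 samples was measured on one-colour 4x44K mouse arrays, with 500 ng of total RNA labelled per array, per the labels. Spots were read with Agilent Feature Extraction 12.0.0.7, per the file headers, and the deposited files give a background-subtracted processed signal, a linear intensity, and per the file headers flags of 0 or 1 for signal well above background, saturation and outliers. The value table equals the deposited intensity averaged over the spots of a probe, within a relative difference of 5e-06, with no scaling between arrays. From 45018 spots per array, 1639 control spots were left out and the rest averaged to 41174 probes. Levels are log2 of the intensity minus the 75th percentile of the array. Probes well above background on at least 3 arrays of 1 group were kept. Accessions in the files were matched to RefSeq (GRCm38.p6) for 28223 probes (19096 symbols), 12951 stayed unnamed, and the brightest probe stands for a gene.

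Differences were tested in limma 3.58.1 (R 4.3.3) with 1 mean per group over all 15 samples, two-sided, with Benjamini-Hochberg adjustment over 25107 features and a threshold of 0.05. Single values were also tested by exact permutation over samples. On simulated data for 25107 features, a log2 change of 1 was recovered for 29% of changed features in BAT and 30% in WAT, and a change of 2 for 86% and 80.5%. The simulated noise was independent between features, with 1 spread per feature for all groups. It did not carry the split between AdipoKO_WAT 4 and the other WAT knockouts, so recovery in the WAT data may differ. Alternatives were another background, scaling, filter, probe rule, set of samples or block, and marker levels as covariates. The design text calls the samples of a group biological replicates and does not say which samples share an animal. On all slides a given group occupied the same place, so array position and group cannot be told apart. Deviations of same-numbered samples from their group means had correlations of -0.474 to 0.287. Between BAT and WAT these were 0.0514 to 0.177 in controls and -0.266 to 0.121 in knockouts. Differently numbered samples were not compared, so these values cannot show whether samples share an animal. The numbers were not used as pairs in the main fit.

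Values in every sample are given for widely used readouts (Fkbp5, Tsc22d3, Sgk1, Dusp1, Klf9, Ddit4), for genes whose knockout and control samples did not overlap in a depot, and for the 8 genes of smallest p between depots in controls. The genes and lists were chosen with earlier results of these data known.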

Additional observations from a re-analysis of the deposited data

Results flagged for a closer look

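In 6 of 93 groups of 4 samples examined (6.45%), 1 sample lay far from the other 3 by Dixon's test at the 95% level, which chance alone does in about 1 of 20 groups. In BAT, Sgk1 was 5.33 in AdipoKO_BAT 2, against 4.13 to 4.22 in the other AdipoKO_BAT samples. Bcl6 was 2.83 in CTL_BAT 1, against 4.63 to 4.83 in the other CTL_BAT samples. In WAT, 3 of the flags fell on CTL_WAT 2. Klf9 was 1.32 there, against 1.03 to 1.06 in the other CTL_WAT samples, Sesn1 was 2.65, against 2.76 to 2.79, and Gadd45g was 3.30, against 3.87 to 3.97. Hif3a was -3.43 in CTL_WAT 4, against -2.41 to -2.22 in the other CTL_WAT samples.

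Cebpd stood out because every AdipoKO_BAT sample lay above every CTL_BAT sample and every AdipoKO_WAT sample lay below every CTL_WAT sample. In WAT this flag rested on a minute margin, 3.5895 in AdipoKO_WAT 4 against 3.597 in CTL_WAT 4. The BAT difference exceeded the WAT difference by 1.07, and the limma interaction had an adjusted p of 0.371.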

How the results depend on the processing

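The count of glucocorticoid-induced genes called between knockouts and controls was 0 in BAT under all 29 alternatives and 0 in WAT under 28 of 29. Leaving out 1 sample gave 0 to 17 genes in WAT, 0 in BAT, 0 to 12 for the interaction, 15 to 19 between depots in controls and 14 to 21 in knockouts. The depot count in knockouts was 9 with only those groups in the fit, against 18. Over all features, leaving out 1 sample gave 7 to 9254 calls in WAT and 0 to 85 in BAT. It gave 1 to 4071 for the interaction, 6625 to 10601 between depots in controls and 4504 to 11458 in knockouts. Calls over all features thus moved as well, and the ranges of the glucocorticoid-induced genes are not read as particular to the set. Nr3c1 in BAT (-1.03) had an adjusted p of 0.0486 with 4 separate WAT knockout arrays. Leaving out 1 sample gave -1.14 to -0.96 in BAT (adjusted p from 0.0406 to 0.357) and -0.74 to -0.53 in WAT (0.0224 to 0.760). With the replicate block, 0 genes were called in either knockout comparison or the interaction, 18 between depots in controls and 17 in knockouts, and the difference of Nr3c1 was -1.03 in brown fat (adjusted p = 0.251), with -0.64 for white fat (adjusted p = 0.335). Signs turned for values near 0, and the cause was not tested. Mertk in WAT was 0.0026 with normexp. Tsc22d3 in WAT was -0.015 with median scaling, -0.051 without the 2 controls with intestinal transcripts and -0.012 to 0.319 with 1 sample left out (-0.012 without CTL_WAT 1). Fkbp5 in WAT was -0.15 with the adipocyte covariate. Klf9 in BAT was 0.0028 with quantile normalization, 0.010 with the muscle covariate and -0.168 to 0.046 with 1 sample left out (above 0 without CTL_BAT 3, CTL_BAT 4 or AdipoKO_BAT 1). Between depots in controls, normexp gave 11 genes higher and 6 lower and quantile normalization 9 and 8, and in knockouts 11 and 2 and 12 and 5. For these settings, the knockout groups alone and the replicate block, the share of all features is not given here. Those depot counts are therefore not read as particular to the set. The interaction could not be fitted from 1 depot alone.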
